A study of Homo sapiens with 6 samples.

Results

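The genes examined here are the 8 that encode the first steps of branched-chain amino acid catabolism and their control, BCAT1, BCAT2, BCKDHA, BCKDHB, DBT, DLD, BCKDK, and PPM1K. They were taken by gene symbol from the 46427 genes of the deposited expression table, and all 8 had reads in each of the 6 libraries. The set was proposed because the read count of BCAT1 was lower after MALAT1 knockdown in each cell line, and most in A549, so this change of BCAT1 is described below without a test. MALAT1 is a long noncoding RNA of the nucleus. Total RNA was sequenced from 3 NSCLC cell lines, H460, H1299, and A549, with 1 control library and 1 library of cells transfected with si-MALAT1 for each. H460 is an established line from a large cell lung carcinoma, H1299 one from a lymph node metastasis of a lung carcinoma, and A549 one from a lung adenocarcinoma. The labels call the control cells tumor cells without treatment, whereas the methods describe negative controls and si-Control cells without stating which were sequenced. If the sequenced controls were untreated, the knockdown and the transfection of an siRNA cannot be told apart. Each line is a single culture per condition, and no second siRNA is labelled.

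Leucine, isoleucine, and valine are the branched-chain amino acids, and their breakdown starts with a reversible transfer of the amino group to 2-oxoglutarate, which gives glutamate and a branched-chain keto acid. BCAT1 carries out this transfer in the cytosol and BCAT2 in mitochondria. The keto acid is then oxidized, irreversibly, by the branched-chain keto acid dehydrogenase complex. Its E1 component is built from the alpha subunit BCKDHA and the beta subunit BCKDHB, its E2 core is the acyltransferase DBT, and its E3 component is DLD, a flavoprotein that also serves the pyruvate, 2-oxoglutarate, and glycine complexes. The kinase BCKDK switches the complex off by phosphorylating the alpha subunit, and the mitochondrial phosphatase PPM1K removes the phosphate. BCAT1 has a restricted range of normal tissues and is known for its expression in several tumors, lung carcinoma among them.

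The deposited counts summed to between 42506818 and 68515992 reads per library, with the A549 pair the shallowest. MALAT1, on chr11:65497738-65506516 of GRCh38, checks the knockdown. Its control and si-MALAT1 counts were 231045 against 43858 for H460, 407551 against 47935 for H1299, and 93747 against 14447 for A549. The log2 fold changes of -2.32, -2.96, and -2.84 had the direction of the labels, and its exons share 7205 bases with the antisense TALAM1. The libraries matched an epithelial origin only in part. KRT8 and KRT18 were at 122 to 2918 TPM (a transcript level scaled for length and depth) in all 6 libraries, whereas KRT19 reached 399 TPM or more in H460 and 2.23 or less elsewhere, EPCAM was at or below 8.04, and CDH1 was above 0.0468 only in A549. The summed TPM of 3 endothelial markers was at most 0.0956 and that of 3 leukocyte markers 0.0241 to 9.25, with PTPRC, CD3E, and CDH5 at 0 in all libraries and CD14 the leukocyte gene that was detected. The summed fibroblast markers reached 16.1 TPM through COL3A1 in H460 and A549.

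BCAT1 (Gene ID 586) lies on the minus strand at chr12:24810024-24949101 of GRCh38 and has a long 3′ UTR, 7984 bases in the transcript NM_005504. In an earlier search of these libraries, the 7-base words TGAATCA and ATGAATC in 3′ UTRs went with lower expression after si-MALAT1, so the 3′ UTRs of the 8 genes were read for them on the transcript strand. That search was not repeated here, and the link of the words to expression was not tested. For each gene only 1 transcript was read, the curated one with the longest 3′ UTR, and other transcripts were not searched. Among the 8 genes read in this way, BCAT1 was the only one with a match. Both places are printed 5′ to 3′ as the transcript reads, with the matched words in capitals and 10 bases on each side. The first, at bases 737 to 744 of the 3′ UTR, holds both words overlapping by 6 bases, and the second, at bases 7661 to 7667, holds ATGAATC.
BCAT1 3′ UTR, chr12:24817254-24817281, minus strand: tggttttataATGAATCAgtgaacattt
BCAT1 3′ UTR, chr12:24810331-24810357, minus strand: ttttcaaatcATGAATCtgattccata
DBT has the longer 3′ UTR, 9336 bases, and PPM1K one of 4975 bases, and neither holds either word. The other 3′ UTRs ran from 362 bases in BCAT2 to 2466 bases in BCKDHB, likewise with no match. A match is common in long 3′ UTRs: 18.4% of 12724 expressed genes held at least 1 of the words, but 55.3% of the 443 genes with a 3′ UTR close in length to that of BCAT1, which for these genes ran from 6390 to 9976 bases. The words came from the same libraries, so their presence in BCAT1 is a description of its sequence and not independent of its change.

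Per length, the 8 genes spanned a wide range of levels. DLD was the most abundant in 5 of 6 libraries, with 42.0 and 48.6 TPM in H460 control and si-MALAT1, 31.3 and 43.1 TPM in H1299, and 38.1 and 51.8 TPM in A549. In the H1299 control it was second to BCKDHA. DBT, the E2 core, stood at the other end of the complex, between 3.37 and 5.47 TPM, and the DLD to DBT ratio of TPM lay between 7.88 and 14.0. PPM1K and DBT took the lowest places in H460 and H1299, and in A549 the lowest places were those of BCAT1 and PPM1K. BCAT1 held the fourth place of the 8 in the H460 control and the third in the H1299 control, but the seventh in the A549 control and the eighth in A549 after si-MALAT1.

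**Figure D1:**
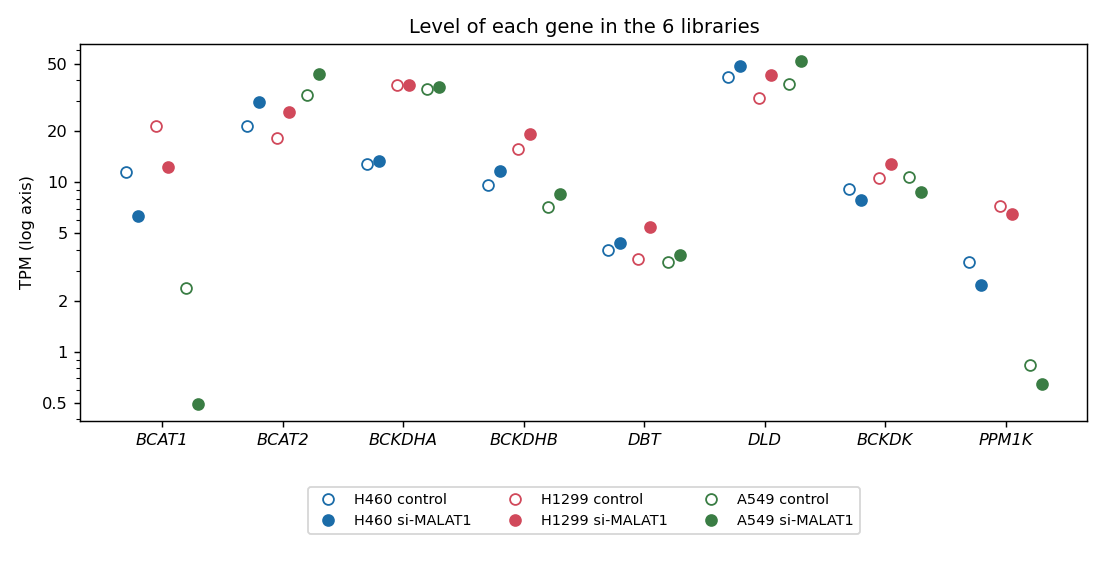
TPM of each of the 8 genes (log axis) in the 6 libraries, with open circles for control and filled circles for si-MALAT1 libraries, 1 library per circle. BCAT1 and PPM1K spread most, from 0.496 to 21.5 TPM and from 0.649 to 7.22 TPM, while DBT, DLD, and BCKDK stay within a narrow band.

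BCAT1 was lower in the si-MALAT1 library of each cell line. Throughout, the control value is set first and the si-MALAT1 value second. The counts of BCAT1 were 6229 against 3554 for H460, 11790 against 6061 for H1299, and 774 against 181 for A549. In TPM these libraries held 11.5 and 6.33, 21.5 and 12.4, and 2.38 and 0.496. The order of the lines, H1299 above H460 above A549, was the same in control and si-MALAT1 libraries, and even the A549 control lay below every H460 and H1299 library. After scaling of counts by RLE size factors and addition of 1, BCAT1 had a log2 fold change of -0.73 (-0.79 to -0.67, the 95% interval) for H460, -0.83 (-0.87 to -0.78) for H1299, and -2.24 (-2.48 to -2.01) for A549. These are decreases of 39.6%, 43.7%, and 78.8%, with -1.26 ± 0.84 (SD, n = 3 cell lines) as the mean on the log2 scale. Intervals within a cell line are exact Clopper-Pearson intervals on the split of the reads between 1 control and 1 si-MALAT1 library, and they cover counting error only. Among the 8 genes, BCAT1 was the only one at least 1.5-fold lower in each of the 3 lines, which 1.28% of the 17834 genes with a read in every library were, and no gene of the set was 1.5-fold higher in all 3, which 1.19% of genes were. Lower by 1.5-fold in a single line were 10.3%, 11.4%, and 11.4% of genes in H460, H1299, and A549. BCAT1 passed a log2 fold change of -1.5 in A549 alone, where 1.68% of genes were that low, beside 1.46% in H460 and 1.18% in H1299. On the log2(TPM + 1) scale, which shrinks changes at low levels, the A549 value was -1.17.

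BCAT2 (Gene ID 587, chr19:48795064-48811029, minus strand), the mitochondrial enzyme for the same reaction, was higher after si-MALAT1 in each line. Counts of BCAT2 were 1966 against 2852 for H460, 1641 against 2031 for H1299, and 1789 against 2717 for A549. The log2 fold changes were 0.62 (0.53 to 0.70), 0.44 (0.34 to 0.53), and 0.46 (0.37 to 0.54), and their mean was 0.50 ± 0.10. Only the H460 value passed a fold change of 1.5, as did 9.5% of genes in that direction, and no gene of the set was 1.5-fold higher in H1299 or A549, where 11.7% and 11.5% of genes were. BCAT2 shares 327 exon bases with an antisense transcript, LOC105372432, which had 0 reads in all 6 libraries.

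The balance between the cytosolic and the mitochondrial transaminase therefore differed between control and si-MALAT1 libraries. In TPM, BCAT1 to BCAT2 stood at 0.538 against 0.212 for H460, 1.18 against 0.477 for H1299, and 0.0724 against 0.0114 for A549. BCAT1 exceeded BCAT2 per length in 1 of 6 libraries, the H1299 control. The log2 change of the ratio, taken from counts, was -1.35 in H460, -1.27 in H1299, and -2.70 in A549. Of the summed TPM of both genes, BCAT1 made up 35.0% against 17.5% for H460, 54.2% against 32.3% for H1299, and 6.75% against 1.12% for A549. The sum itself was 32.9 against 36.2 TPM for H460, 39.6 against 38.3 TPM for H1299, and 35.2 against 44.1 TPM for A549. It was thus lower after si-MALAT1 in H1299 alone, and the largest difference was the rise in A549. Since the ratio contains BCAT1, its change follows from how the set was proposed and was not tested.

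**Figure D2:**
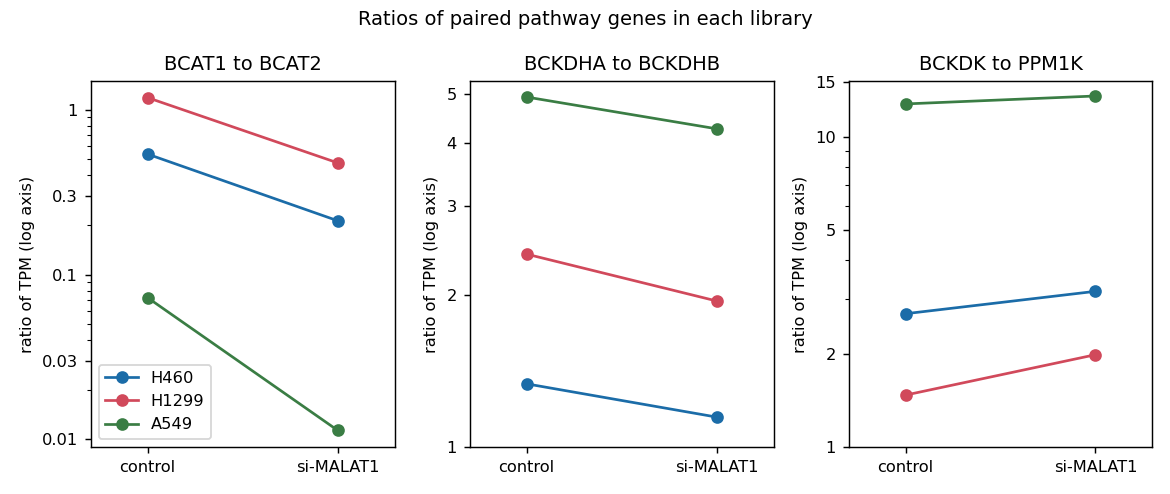
Ratio of TPM (log axis) in the control and si-MALAT1 library of each cell line for BCAT1 to BCAT2, BCKDHA to BCKDHB, and BCKDK to PPM1K, with 1 library per point and lines joining the libraries of a cell line. BCAT1 to BCAT2 is lower after si-MALAT1 in each line, from 1.18 to 0.477 in H1299, and BCKDHA to BCKDHB also slopes downward, while BCKDK to PPM1K slopes upward.

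Of the subunits of the dehydrogenase complex, BCKDHB, DBT, and DLD were higher after si-MALAT1 in each line, and BCKDHA was not. The count of BCKDHB (Gene ID 594, chr6:80106610-80469088, plus strand), the E1 beta subunit, was 1905 against 2509 for H460, 3359 against 3950 for H1299, and 767 against 1212 for A549. Its log2 fold changes were 0.48 (0.39 to 0.57), 0.36 (0.30 to 0.43), and 0.51 (0.38 to 0.65), with a mean of 0.45 ± 0.08. In TPM, BCKDHB was at 9.58 against 11.7 for H460, 15.6 against 19.2 for H1299, and 7.17 against 8.59 for A549. Its rise was smaller in TPM than by scaled count in each line. The size of the change was not tested between lines. The count of DBT (Gene ID 1629, chr1:100186919-100249864, minus strand) was 2193 against 2677 for H460, 1843 against 2341 for H1299, and 1035 against 1403 for A549. The log2 fold changes of DBT were 0.37, 0.48, and 0.29, with a mean of 0.38 ± 0.09. In TPM, DBT was at 3.97 against 4.39 for H460, 3.51 against 5.47 for H1299, and 3.37 against 3.71 for A549. This rise was larger in TPM than by scaled count in H1299, and smaller in H460 and A549. The count of DLD (Gene ID 1738, chr7:107891107-107921198, plus strand) was 8660 against 10413 for H460, 6388 against 7666 for H1299, and 4705 against 7141 for A549. DLD had the narrowest spread of the 8, with log2 fold changes of 0.35, 0.39, and 0.46 and a mean of 0.40 ± 0.06.

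BCKDHA (Gene ID 593, chr19:41397818-41425002, plus strand), the E1 alpha subunit that BCKDK phosphorylates, differed little between conditions and not in one direction. Counts of BCKDHA were 1298 against 1413 for H460, 3787 against 3274 for H1299, and 2160 against 2492 for A549. Its log2 fold changes were 0.20 (0.09 to 0.31), -0.08 (-0.15 to -0.01), and 0.06 (-0.02 to 0.15). The ratio of BCKDHA to its E1 partner BCKDHB in TPM was 1.33 against 1.15 for H460, 2.41 against 1.95 for H1299, and 4.94 against 4.27 for A549, lower in the si-MALAT1 library of each line. The difference between lines was the larger, since every A549 ratio lay above every H1299 ratio, and every H1299 ratio above both H460 ratios. Summed over BCKDHA, BCKDHB, DBT, and DLD, the level was 68.4 against 78.1 TPM for H460, 88.1 against 105 TPM for H1299, and 84.1 against 101 TPM for A549. DLD, which also serves other complexes, had the largest rise in TPM of these genes in each line.

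The kinase and the phosphatase of the complex followed different patterns. The count of BCKDK (Gene ID 10295, chr16:31108381-31117651, plus strand) was 1087 against 952 for H460, 1255 against 1341 for H1299, and 771 against 709 for A549. Its log2 fold change was -0.11 (-0.24 to 0.02), 0.23 (0.11 to 0.34), and -0.27 (-0.41 to -0.12), with both signs among the lines. The count of PPM1K (Gene ID 152926, chr4:88257617-88284670, minus strand) was 1098 against 854 for H460, 2415 against 1857 for H1299, and 159 against 127 for A549. PPM1K was lower in each line. Its log2 fold changes of -0.28 (-0.41 to -0.15) in H460, -0.25 (-0.34 to -0.16) in H1299, and -0.47 (-0.82 to -0.12) in A549 had a mean of -0.33 ± 0.12, and the low A549 counts give the widest interval of the 8 genes. The BCKDK to PPM1K ratio in TPM was 2.69 against 3.18 for H460, 1.47 against 1.98 for H1299, and 12.8 against 13.6 for A549, with the kinase above the phosphatase in every library.

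**Figure D3:**
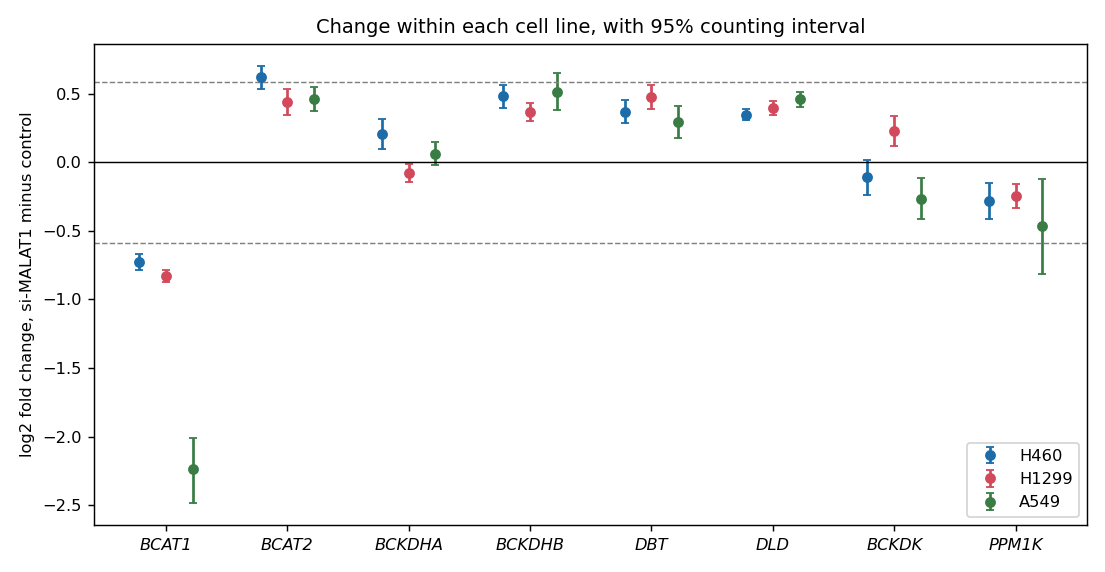
Log2 fold change (si-MALAT1 minus control, RLE-scaled counts plus 1) of each gene in each cell line, 1 library per condition, with bars for the exact 95% counting interval and dashed lines at a fold change of 1.5 in either direction. BCAT2, BCKDHB, DBT, and DLD lie above 0 in the 3 lines, BCAT1 and PPM1K below, and BCAT1 in A549 stands lowest at -2.24.

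In all, 4 of 8 genes were higher in the 3 lines, BCAT2, BCKDHB, DBT, and DLD, and 2 of 8 lower, BCAT1 and PPM1K. Over the 17834 genes, 21.4% were higher and 18.8% lower in the 3 lines. Leaving out BCAT1, the median log2 fold change of the other 7 was 0.35 in H460, 0.36 in H1299, and 0.29 in A549, beside medians over all genes of 0.02, 0.02, and 0.01. Across the cell lines, with each si-MALAT1 library paired with the control of its line, edgeR's quasi-likelihood test called 0 of these 7 genes at an adjusted p under 0.05, and it called 0.00523% of the 19122 genes tested, which is MALAT1 alone (adjusted p = 0.0381). BCAT2 had a log2 fold change of 0.49 with a standard error of 0.11 and an adjusted p of 0.131 in this edgeR test. The edgeR adjusted p was 0.156 for BCKDHB, 0.192 for DLD, 0.214 for DBT, 0.289 for PPM1K, 0.875 for BCKDK, and 0.896 for BCKDHA. At an unadjusted p under 0.05 the test named 5 of the 7 (BCAT2, BCKDHB, DBT, DLD, and PPM1K) and 15% of all genes. DESeq2's Wald test on the same genes called 5.96% of all genes and 3 of the 7, BCAT2 with an adjusted p of 0.00376, DLD with 0.00609, and BCKDHB with 0.0121, but not DBT, with 0.0553. DESeq2 by default sets aside genes of low mean count before it adjusts p, and its 5.96% counts these as not called. The calls on the 7 genes thus depend on the test, and the comparison is the one by which the set was proposed.

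Levels of these genes were also compared between the cell lines. BCAT1 is given here without a test, since the choice of the set rests on its fall in each line and most in A549, which uses the same counts. For the other 7 genes the comparison rests on 2 libraries a line, 1 control and 1 si-MALAT1, in the same edgeR fit. PPM1K differed most of these 7 in both contrasts with A549. It was lower in A549 than in H1299 by a log2 fold change of -3.29 ± 0.17 (SE; edgeR adjusted p = 5.12e-05) and lower than in H460 by -2.37 ± 0.16 (edgeR adjusted p = 0.000187). It was higher in H1299 than in H460 by 0.92 ± 0.15 (edgeR adjusted p = 0.00294), so that the 3 lines were ordered H1299, H460, A549, each apart from the next. As a description, the fitted log2 difference of BCAT1 was -3.79 between A549 and H1299, -3.16 between A549 and H460, and 0.63 between H1299 and H460. Without the A549 si-MALAT1 library, which held 181 reads of BCAT1, these were -3.15, -2.52, and 0.63.

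The other differences between lines were smaller. BCKDHA was lower in H460 than in both other lines, by a log2 fold change of 1.17 ± 0.14 against H1299 (edgeR adjusted p = 0.000856) and of 1.17 ± 0.14 against A549 (edgeR adjusted p = 0.00139), and H1299 and A549 were not told apart (difference 0.00 ± 0.13). BCKDHB, by contrast, was lowest in A549, by -1.31 ± 0.13 against H1299 (edgeR adjusted p = 0.00056) and -0.79 ± 0.13 against H460 (edgeR adjusted p = 0.00513). It was also higher in H1299 than in H460, by 0.53 ± 0.13 (edgeR adjusted p = 0.0148). The E1 alpha and beta subunits thus had different orders over the lines. BCAT2 was higher in A549 than in H1299 by 0.88 ± 0.13 (edgeR adjusted p = 0.00255) and lower in H1299 than in H460 by -0.59 ± 0.13 (edgeR adjusted p = 0.0106), whereas A549 and H460 were not told apart (0.29 ± 0.13, edgeR adjusted p = 0.127). DLD was lower in H1299 than in H460 by -0.65 ± 0.13 (edgeR adjusted p = 0.00703). DBT was lower than in H460 by -0.43 ± 0.13 in H1299 (edgeR adjusted p = 0.0339) and by -0.61 ± 0.13 in A549 (edgeR adjusted p = 0.0139). No difference passed for BCKDK, which ranged from -0.21 ± 0.17 to 0.15 ± 0.17.

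By count, 6 of the 7 genes other than BCAT1 passed between H1299 and H460, where 52.6% of all genes passed. Of these, 3 were higher and 3 lower in H1299, beside 26% and 26.6% of all genes. Between A549 and H460, 4 of 7 passed (38.2% of all genes), 1 higher and 3 lower in A549 (18.9% and 19.3% of all genes). Between A549 and H1299, 3 of 7 passed (48.9% of all genes), 1 higher and 2 lower in A549 (24.4% and 24.5% of all genes). Differences of this kind were thus common among all genes. The calls on BCKDHB and DBT between some lines were lost when 1 library was left out, with the highest adjusted p at 0.0743 for BCKDHB and 0.141 for DBT between H1299 and H460, and at 0.0923 and 0.169 between A549 and H460. The DBT call between H1299 and H460 was also lost with no filter on low counts (edgeR adjusted p = 0.0559). For BCAT2 between H1299 and H460, the call was lost without the H460 si-MALAT1 library (log2 fold change -0.51). It was also lost without the H1299 si-MALAT1 library (-0.53). The calls on PPM1K in both A549 contrasts, on BCKDHA in both contrasts with H460, on DLD and PPM1K between H1299 and H460, and on BCAT2 and BCKDHB between A549 and H1299 remained under each of 11 alternatives.

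Over the 6 libraries, the gene of the set closest to BCAT1 in pattern was PPM1K, with a Pearson correlation of log2 scaled counts of 0.95, the rank 127 among 15902 genes with a mean count of at least 50. The correlation was 0.68 for BCKDHB, 0.65 for BCKDK, 0.28 for DBT, -0.34 for DLD and for BCKDHA, and -0.83 for BCAT2, the lowest of the set. A value this high is not rare, since 510 genes (3.21%) had a correlation of at least 0.9, and A549 held the lowest level of both genes. The 5 genes most like BCAT1 were TAF7, a subunit of the general transcription factor TFIID (0.995), PIP5KL1 (0.992), L3MBTL1 (0.992), GIPR, the receptor of the incretin GIP (0.991), and RC3H2 (0.990). The log2 fold change of TAF7 with si-MALAT1 was -0.13 in H460, -0.18 in H1299, and -0.28 in A549, much smaller than that of BCAT1.

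The genes around the 8 were grouped by role into 6 lists of 60 genes in all, of which the paired edgeR test called 0 at an adjusted p under 0.05 and 16 at an unadjusted p under 0.05, beside 15% of all genes. Of the 59 with a read in every library, 22 were higher and 9 lower in the 3 lines, beside 21.4% and 18.8% of all genes, and none was 1.5-fold changed in one direction in all 3. Of the 7 transport genes, 6 had a read in every library, all but SLC7A8, which had 0 reads in H1299 and in the A549 control. These 6 had median log2 fold changes of -0.18, -0.22, and -0.15 in H460, H1299, and A549, with SLC7A8 left out. Of them, 3 were lower and 2 higher in the 3 lines, and the paired edgeR test called 0 of the 7. Both chains of the main leucine importer had lower counts in each si-MALAT1 library. SLC7A5, its transport chain, had counts of 10589 against 6870 for H460, 6265 against 2315 for H1299, and 15019 against 12281 for A549, with log2 fold changes of -0.54, -1.30, and -0.44 (edgeR adjusted p = 0.157). SLC3A2, the heavy chain that carries it to the membrane, had log2 fold changes of -0.21, -0.88, and -0.63 (edgeR adjusted p = 0.173). SLC3A2 was also the most abundant of the list, with a mean of 114 TPM, and SLC7A8 the least, with 0.0528 TPM. SLC6A15 was the third lower gene, with a mean of -0.27. SLC43A2 and SLC25A44, the mitochondrial carrier, were higher in the 3 lines, with means of 0.44 and 0.25.

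Downstream of the complex, genes differed in both directions and the paired edgeR test called 0, beside 0.00523% of all genes. Of the 5 leucine steps, 3 were higher and 1 lower in the 3 lines, beside 21.4% and 18.8% of all genes. IVD, the first dehydrogenase of the branch, was among the higher (mean log2 fold change 0.21), and MCCC1 was the least abundant at 9.44 TPM. Of the 14 isoleucine and valine steps, 6 were higher and 1 lower, beside the same shares of all genes. ACAT1, the thiolase at the end of the isoleucine branch, had log2 fold changes of 0.50, 0.25, and 0.51 (edgeR adjusted p = 0.199), while ACADSB, the dehydrogenase at its start, had -0.05, -0.58, and -0.74 (edgeR adjusted p = 0.260). HSD17B10 was the most abundant of these (84.7 TPM) and MMAA the least (0.774 TPM). The median of the isoleucine and valine list was 0.26 in H460, 0.12 in H1299, and 0.13 in A549.

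Other genes linked to DLD or to lipoate, including those that make or transfer lipoate, had median log2 fold changes of 0.08, 0.10, and 0.15. These were below the 0.35, 0.39, and 0.46 of DLD. Of the 12, 4 were higher and 1 lower in the 3 lines, beside 21.4% and 18.8% of all genes. PDHX, the E3-binding protein of pyruvate dehydrogenase, had a mean of 0.18 and DLAT, the E2 of that complex, one of -0.26. PDHB was the most abundant (72.0 TPM) and OGDHL the least (0.485 TPM). Of 11 enzymes that make or use glutamate, 3 were higher and 2 lower, beside the same shares of all genes. GLUL, glutamine synthetase, was among the higher, with counts of 3859 against 5533 for H460, 3523 against 3966 for H1299, and 51 against 104 for A549 (mean 0.59 ± 0.29, edgeR adjusted p = 0.176). In TPM, GLUL was at 12.7 against 13.4 for H460, 10.2 against 10.8 for H1299, and 0.172 against 0.318 for A549. Its rises in H460 and H1299 were smaller in TPM than by scaled count. AADAT was also among the higher (mean 0.45). GLUD1 was at 89.7 TPM, the highest, and GPT at 0.286 TPM, the lowest. Of 11 kinases and phosphatases related to BCKDK and PPM1K, 4 were higher and 1 lower, again beside 21.4% and 18.8% of all genes. PDK4, a pyruvate dehydrogenase kinase of the same family as BCKDK, had log2 fold changes of 1.15, 0.95, and 0.43 (edgeR adjusted p = 0.120) and PPM1D, a phosphatase of the same family as PPM1K, 0.37, 0.51, and 0.56 (edgeR adjusted p = 0.156), with PPM1G the most abundant (74.0 TPM) and PPM1L the least (1.75 TPM).

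**Figure D4:**
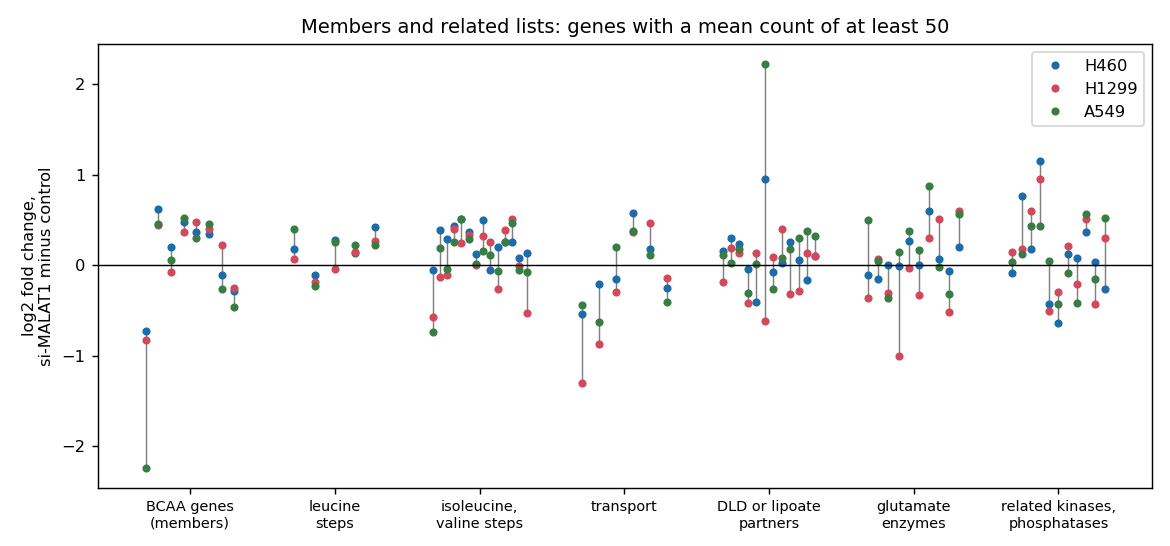
Log2 fold change (si-MALAT1 minus control) of the 8 genes and of the genes of the 6 related lists with a mean count of at least 50, with a grey line per gene joining its 3 cell lines, 1 library per condition. BCAT1, the first gene at the left, lies lowest at -2.24 in A549, and SLC7A5, the first of the transport list, reaches -1.30 in H1299.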

How the data were processed

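Total RNA of 6 libraries, 1 control and 1 si-MALAT1 library each of H460, H1299, and A549, was prepared with a stranded kit after removal of ribosomal RNA. Reads were trimmed by the authors and mapped with HISAT 2.1.0 on hg38. Abundances came from StringTie, whose version is 1.3.4b in the submitters' processing notes and a later one in the methods. The notes also list hg19, and the deposited annotation fits GRCh38. Whether counting used the strand is not given in the sources used here. The deposited counts are whole numbers, not normalized. The TPM and FPKM that the authors deposited are scaled for length and depth. The table holds 18 columns of other samples, which were not used.

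Within each cell line, log2 fold changes were taken from RLE-scaled counts plus a pseudocount of 1, for the 17834 genes with a read in every library. With 1 library per condition they have no p. Across lines, edgeR 4.0.16 (quasi-likelihood, TMM, filterByExpr on treatment groups, terms for cell line and treatment, 2 residual degrees of freedom, two-sided, Benjamini-Hochberg over 19122 genes) was used. Nothing states that libraries of different lines were independent experiments, so p-values measure only the spread between these libraries. In the edgeR fit the spread of a gene is estimated in part from that of the other genes. Libraries were paired by cell line. DESeq2 1.42.0 was the alternative, on the same genes, with its default filter on mean count before the adjustment. Its adjusted p is therefore taken over fewer genes than that of edgeR. Both filters were settled after calls had been seen; filterByExpr on the full design and DESeq2 on all genes, which were run first, are given as alternatives. The code was tested on simulated data.

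The members, gene lists, and 3′ UTR words were chosen with earlier results of these data known. Genes named beside the members are, per list, those with a fold change of 1.5 in one direction in the 3 lines or an adjusted p under 0.05, otherwise the 2 with the largest absolute mean change in one direction in the 3 lines and a mean count of at least 50, the most and the least abundant by TPM, the 5 most correlated with BCAT1, and genes that overlap a member. SLC43A2, SLC25A44, and SLC6A15 were named after their values were seen. A further gene that this rule names is not reported here. 3′ UTRs were read from the deposited NCBI annotation (release 109) and the GRCh38 sequence, for the curated transcript of each gene with the longest 3′ UTR. Software was Python 3.11.15 with pandas 2.3.3, scipy 1.17.1, numpy 2.4.6, and matplotlib 3.10.9, and R 4.3.3.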

Additional observations from a re-analysis of the deposited data

Results flagged for a closer look

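For 2 of the 8 genes the counting intervals lay on opposite sides of 0 in different cell lines. BCKDHA was higher after si-MALAT1 in H460 (log2 fold change 0.20) and lower in H1299 (-0.08). In TPM, BCKDHA was at 12.8 against 13.4 for H460 and 37.7 against 37.3 for H1299, so both differences were smaller on that scale. BCKDK was higher in H1299 (0.23) and lower in A549 (-0.27). There was 1 library per line and condition, so the difference between lines was not tested in either case.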

How the results depend on the processing

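Counts of calls in the paired comparison moved most with the test and with leaving out H460. edgeR called 0 genes higher and 1 lower, DESeq2 on the same genes 563 higher and 577 lower with 3 of the 7 members other than BCAT1. Lower calls came to 0 with no filter, with no replicate block, and with filterByExpr on the full design. That filter was run first and was replaced after its calls were seen, and with it the adjusted p of MALAT1 was 0.0541 in place of 0.0381. DESeq2 on all genes, likewise run first, gave 694 higher and 643 lower calls and 4 of the 7 members, DBT among them. With the replicate block removed, no member was called. Leaving out both libraries of a line gave 0 to 51 higher and 0 to 112 lower calls, the most without H460, and 0 of the 7 members in each case.

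Members are counted without BCAT1 here too. Leaving out 1 library gave 3 to 5 members called between H1299 and H460, the fewest without the H460 si-MALAT1 library, beside 3832 to 5310 higher and 4198 to 5031 lower calls over all genes. Between A549 and H460, it gave 1680 to 4156 higher and 1883 to 4350 lower calls and 2 to 4 members, the fewest without an A549 library. Between A549 and H1299 it gave 2810 to 5385 higher and 3020 to 5836 lower calls.

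Values near 0 changed sign. With 1 line left out of the paired test, BCKDHA ran from -0.0228 (without H460) to 0.126 and BCKDK from -0.193 to 0.0439 (without A549). With 1 library left out, BCKDK ran from -0.0603 (without H1299 si-MALAT1) to 0.359 between H1299 and H460, and from -0.212 to 0.09995 (without A549 si-MALAT1) between A549 and H460. BCKDHA between A549 and H1299 was at -0.0232 with no filter, -0.0091 with DESeq2 on all genes, and from -0.111 (without H1299 si-MALAT1) to 0.0933 with 1 library left out. None of these passed an adjusted p of 0.05.

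On the log2(TPM + 1) scale, 236 genes were 1.5-fold higher and 803 lower in H460, with 0 members higher there. In H1299 it was 1030 and 778, in A549 670 and 896. With no filter on zeros the counts were 4673 and 4426, 5507 and 5256, and 5021 and 4458. All 24 within-line values of the members kept their sign with log2(TPM + 1), a pseudocount of 10, TMM scaling, and no filter, and 12 of 24 moved beyond the counting interval with log2(TPM + 1). The BCAT1 to BCAT2 ratio in H1299 si-MALAT1 was 0.518 by count over exon length. The causes of these shifts were not tested. Depth limits mainly PPM1K in A549, with 159 and 127 reads, and BCAT1 in the A549 si-MALAT1 library, with 181. BCKDK had 771 and 709 reads in A549, and BCKDHB and BCAT1 had 767 and 774 in the A549 control.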
